A study of Caenorhabditis elegans with 16 samples.

Results

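The accessible regions described here are the ATAC-seq peaks of the X chromosome of Caenorhabditis elegans. In ATAC-seq, a transposase (Tn5) cuts and tags open DNA, so that reads collect at accessible chromatin. A merged peak list of 29131 peaks was counted in every library. The 5878 peaks whose chromosome is given as X were taken, and the 18566 peaks of chromosomes II to V served as the reference. Coordinates are those of the deposited files, on the WBcel235 assembly.

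The 16 libraries came from whole L1 larvae of 4 strains, with 4 replicates each, all kept from the embryo at 23 °C on plates with 1 mM auxin. RPOA-2 is a core subunit of RNA polymerase I, the enzyme that makes ribosomal RNA, and GRWD-1, named RRB-1 in the sample labels, is a chaperone of large ribosomal subunit assembly. The undepleted groups carried the degron tag alone (rpoa-2::degron or rrb-1::degron) and were collected after 18 h. The depleted groups carried the same tag together with eft-3p::tir-1, the plant F-box protein that recruits tagged proteins for degradation in auxin, expressed throughout the body from the eft-3 promoter, and were collected after 24 h. Depleted and undepleted larvae thus differ in the transgene, in strain and in time of collection too, which cannot be told apart from the loss of the protein. The larvae of a strain were split into its 4 replicates after growth, so p-values measure only the spread between samples of the same growth. As whole animals were used, fewer cells of a type with open chromatin and less open chromatin per cell cannot be told apart.

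C. elegans hermaphrodites have a pair of X chromosomes and males a single X. In hermaphrodites the dosage compensation complex, a condensin-like complex that SDC-2 brings to the X, lowers transcription from both copies. Whether the complex is loaded is decided early in the embryo by X-linked counting genes, among them sex-1, fox-1 and ceh-39, which repress the switch gene xol-1. The X is poor in germline genes and holds several timing genes of larval development, such as lin-14, let-7 and daf-12.

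X peaks resembled those of the other chromosomes in size and signal but lay more often between genes. There were 332 peaks per Mb on X and 275 per Mb on chromosomes II to V. The median peak length was 381 bp on X and 380 bp on II to V, and the median level was 52.5 and 52.2 CPM per kb (CPM, counts per unit of library size after TMM scaling). The midpoint lay between genes for 32.4% of X peaks and 25.8% of II to V peaks, in an intron for 26.8% and 26%, and in a coding exon for 28.7% and 37.4%. Peaks overlapping tRNA genes were almost as many on X (177) as on chromosomes II to V together (191).

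Total counts were between 2337415 and 13010378 reads per library, of which between 478728 and 2533301 lay in X peaks. The 24 pairs of libraries of the same group differed by a chi-square per degree of freedom of 1.87 to 11.8, so no pair agreed as closely as counting error alone would allow. The common biological coefficient of variation over all peaks was 8.14%.

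The total share of reads on X differed by less than the spread between replicates in either depletion. The share is the percent of reads in X peaks among the reads in the peaks of II to V and X. X peaks made up 24.0% of these peaks and 24.1% of their length, and they held between 24.1% and 25.7% of the reads, with a counting error (Wilson 95% interval, which covers counting error only) of at most 0.0618 percentage points per library. In undepleted RPOA-2 larvae the share was 24.1%, 25.3%, 24.6% and 24.6% in replicates 1 to 4, and upon RPOA-2 depletion it was 24.5%, 25.2%, 25.2% and 24.3%. The groups overlapped, and the difference was 0.138 percentage points (24.8% ± 0.474 against 24.7% ± 0.481, SD, n = 4; two-sided exact permutation test p = 0.771, adjusted p = 0.889 over 5 chromosomes and 2 depletions). In undepleted GRWD-1 larvae the share was 24.8%, 25.7%, 24.9% and 25.1%, and upon GRWD-1 depletion it was 24.2%, 25.1%, 25.3% and 25.1%. These groups overlapped as well, and the difference was -0.229 percentage points (24.9% ± 0.460 against 25.1% ± 0.396, SD, n = 4; exact permutation p = 0.514, adjusted p = 0.857). With 70 groupings of 4 against 4 the smallest p this test can give is 0.0286, and the smallest of the 10 values was 0.2. The sign of the RPOA-2 difference rested on single libraries, since it was -0.0415 points without RPOA-2 undepleted replicate 1 and -0.000914 points without RPOA-2 depleted replicate 3. The GRWD-1 difference was -0.0371 points without GRWD-1 undepleted replicate 2 and -0.00284 points without GRWD-1 depleted replicate 1. The X share also differed between replicate numbers. The libraries numbered 1 held 24.12% to 24.85% of reads on X and those numbered 2 held 25.08% to 25.71%, without overlap, while numbers 3 and 4 lay between (24.61% to 25.25% and 24.32% to 25.08%). One replicate of each strain was processed concurrently, but the labels do not say that the number marks these batches. Taken as a mean over peaks of log2 CPM, X minus II to V, which weighs peaks alike and carries no test, the GRWD-1 groups did not overlap: the 4 undepleted libraries lay between 0.019 and 0.0591 and the 4 depleted ones between -0.0184 and 0.0167, and the depleted library was the lower one at each replicate number. The means of the groups differed by -0.03. The RPOA-2 groups overlapped (-0.00066 to 0.054 undepleted and -0.0142 to 0.0264 depleted). With the median over peaks in place of the mean, the GRWD-1 groups overlapped as well (-0.0064 to 0.0451 undepleted and -0.0185 to 0 depleted).

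**Figure D1:**
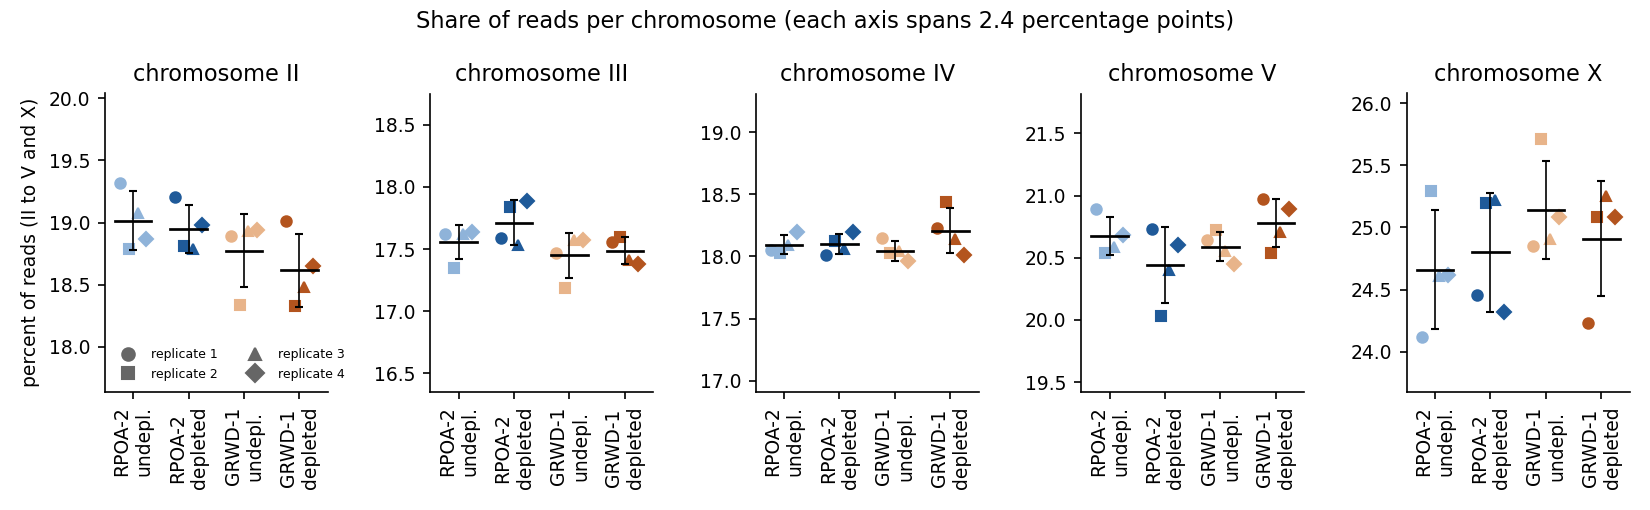
Percent of the reads in peaks of chromosomes II to V and X that fell on each chromosome, for each library; the y axis of every panel spans 2.4 percentage points, marker shapes stand for replicate numbers, lines for group means and bars for the SD of 4 libraries. In the X panel the depleted libraries lie among the undepleted ones, and the 4 libraries numbered 1 lie between 24.12% and 24.85%.

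Taken peak by peak, X was slightly lower than chromosomes II to V upon both depletions. Log2 fold changes, depleted over undepleted, came from a fit of edgeR's quasi-likelihood model to all peaks with the 4 genotypes and 2 factors of unwanted variation. The median over X peaks was -0.01 upon RPOA-2 depletion, against 0.0083 over II to V, and 47.9% of X peaks were above 0, against 51.9%. Upon GRWD-1 depletion the X median was -0.02 against 0.02, and 45% of X peaks were above 0, against 54.2%. These medians over peaks carry no test of their own. The reference chromosomes were not alike: upon GRWD-1 depletion 51.6% of peaks were above 0 on II, 51.5% on III, 56% on IV and 56.8% on V. On chromosome I, outside the reference, it was 49.2%. The 25th and 75th percentiles of X peaks were -0.14 and 0.12 upon RPOA-2 and -0.12 and 0.08 upon GRWD-1 depletion, so the shift was small beside the spread of peaks. The X median stayed below that of II to V in all 16 fits that left out a library. Its sign turned once, to 0.0017 for RPOA-2 depletion without RPOA-2 undepleted replicate 2.

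The median change was small along the whole chromosome. X was cut at 5906242 and 11812484 into 3 stretches of equal length with 1920, 1876 and 2082 peaks. The median log2 fold changes of the left, centre and right stretch were -0.01, -0.01 and -0.0028 upon RPOA-2 depletion and -0.01, -0.03 and -0.02 upon GRWD-1 depletion. Upon RPOA-2 depletion 1.46%, 1.28% and 1.3% of their peaks were called higher and 0.469%, 0.746% and 0.528% lower (all peaks 1.19% and 0.487%). Upon GRWD-1 depletion 0.677%, 0.906% and 0.576% were called higher and 0.833%, 1.44% and 1.25% lower (all peaks 0.57% and 0.814%). Differences between the stretches were not tested. To follow the effects with samples as replicates, reads were summed over the peaks of each 1 Mb window. Of 18 X windows, 9 were below 0 upon RPOA-2 depletion and none passed edgeR's test (the smallest adjusted p was 0.0621), against 0.971% higher and 3.88% lower among all 103 windows. On chromosomes II to V, 39 of 69 windows were below 0 upon RPOA-2 depletion, so X windows were not the lower ones there. An unadjusted edgeR p under 0.05 was found for 1 X window (5.56%), against 21.4% of all windows. For GRWD-1 depletion it was found for 4 X windows (22.2%), against 41.7% of all windows. Upon GRWD-1 depletion 15 of 18 X windows were below 0, and 3 were lower past the test, where 9.71% of all windows were lower and 13.6% higher. The 3 windows were X:4000001-5000000 (log2 fold change -0.04, SE 0.0146), X:10000001-11000000 (-0.05, SE 0.0160) and X:11000001-12000000 (-0.06, SE 0.0196), each with an edgeR adjusted p of 0.0189. The 14 windows that were higher upon GRWD-1 depletion all lay on chromosomes II to V, where 29 of 69 windows were below 0. No X window passed the test of the difference between both depletion effects, against 1.94% of all windows (lower). The 3 calls depended on the fit: none was left without the 2 factors, and none without GRWD-1 depleted replicate 1 or without GRWD-1 depleted replicate 2. Without GRWD-1 undepleted replicate 4 a single window was left, and 5 passed when RPOA-2 depleted replicate 2 was left out. For RPOA-2 depletion, 5 X windows passed without RPOA-2 depleted replicate 2, 2 without RPOA-2 undepleted replicate 4, and 1 each without RPOA-2 depleted replicate 1, GRWD-1 depleted replicate 2 or GRWD-1 depleted replicate 4.

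**Figure D2:**
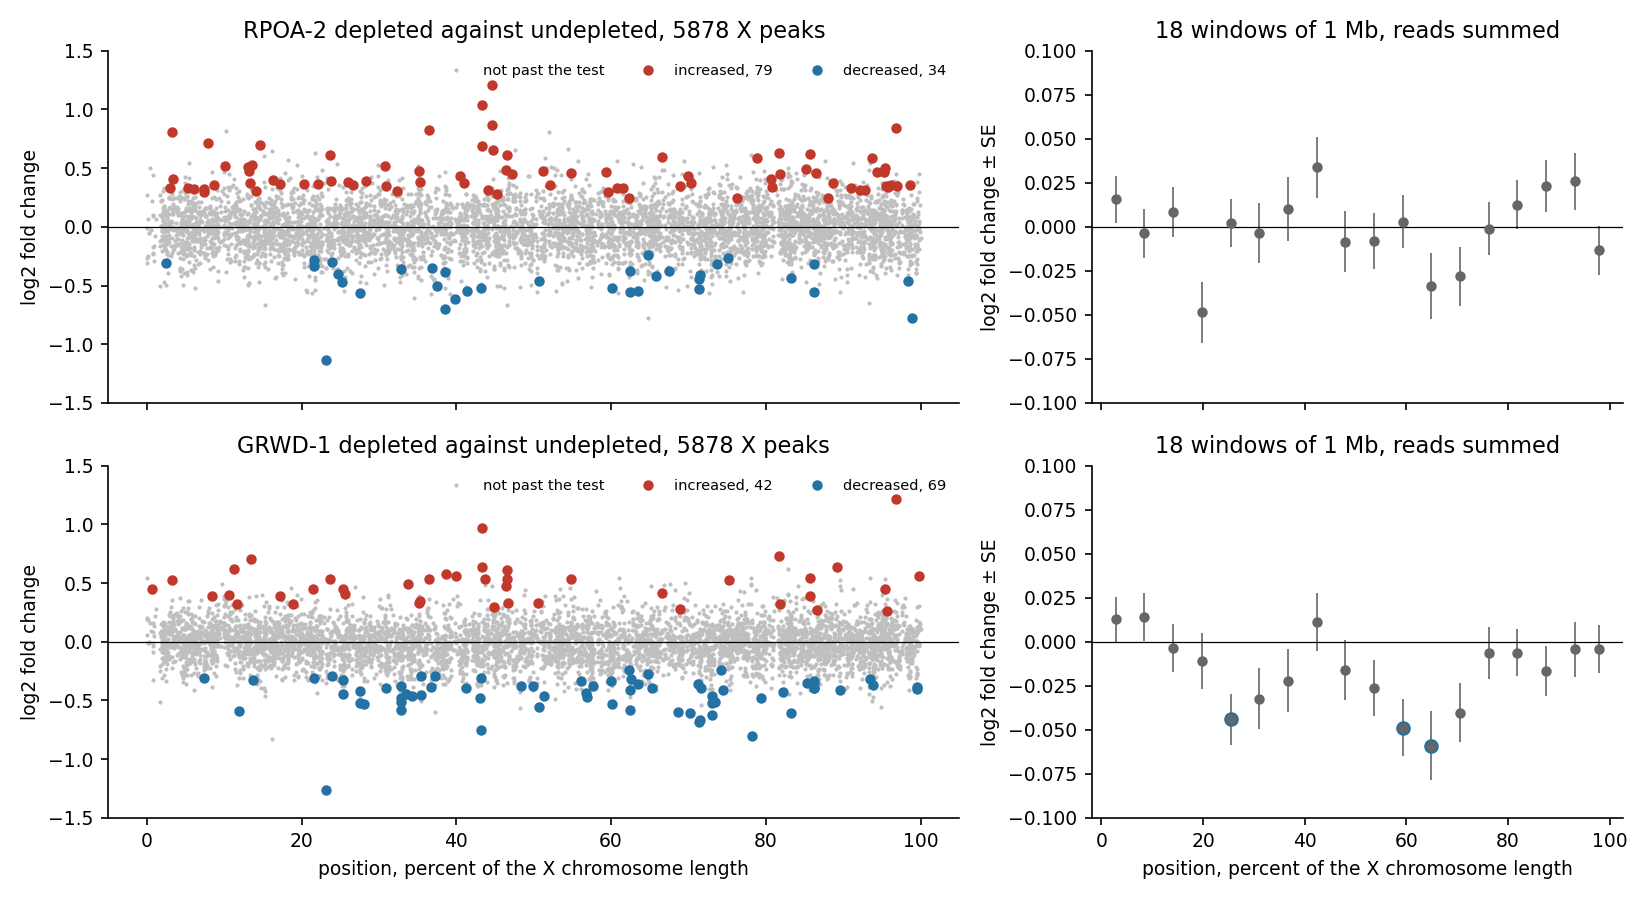
Log2 fold changes along X, with position as percent of the chromosome length; left, each of the 5878 X peaks, with red and blue points for peaks higher or lower past edgeR's adjusted p of 0.05; right, the sums of 18 windows of 1 Mb with SE bars, blue points marking windows past the test. Called peaks were scattered over the whole length, and the 3 windows called upon GRWD-1 depletion reached only -0.06.

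A small share of X peaks changed, in both directions. Upon RPOA-2 depletion 79 X peaks were more accessible and 34 less accessible at an adjusted p under 0.05, which is 1.34% and 0.578% of X peaks. The background over all tested peaks was 1.19% higher and 0.487% lower, and over II to V it was 1.1% and 0.485%. Upon GRWD-1 depletion 42 X peaks were higher (0.715%, background 0.57%) and 69 lower (1.17%, background 0.814%). In this fit more accessible X peaks outnumbered less accessible ones upon RPOA-2 depletion and were outnumbered upon GRWD-1 depletion, but the order was not stable. For GRWD-1, higher and lower peaks numbered 23 and 23 with 1 factor, 12 and 12 with 3 factors and 34 and 23 without GRWD-1 depleted replicate 2. For RPOA-2 they numbered 15 and 16 with control peaks from the GRWD-1 comparison, 24 and 25 without RPOA-2 undepleted replicate 1 and 4 and 4 without RPOA-2 depleted replicate 2. The counts themselves fell to 7 and 2 (RPOA-2) and 3 and 5 (GRWD-1) without the factors and to 25 and 8 (RPOA-2) with 1 factor, and to 1 and 1 for GRWD-1 when the 8 libraries of its comparison were fitted alone. The changes were modest: the median log2 fold change of the called X peaks was 0.39 and -0.44 for RPOA-2, and 0.46 and -0.41 for GRWD-1. In 39 of 79, 21 of 34, 20 of 42 and 37 of 69 of them all 4 depleted CPM values lay apart from all 4 undepleted ones. Over all peaks, called or not, such groups that do not overlap made up 2.13% and 2.49% (higher and lower) for RPOA-2 and 1.76% and 2.12% for GRWD-1.

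The depletions shared part of these peaks. On X, 18 peaks were higher in both (0.306% of X peaks, background 0.233%) and 16 lower in both (0.272%, background 0.209%), and none was called in opposite directions. The 18 were 22.8% of the higher peaks of RPOA-2 and 42.9% of those of GRWD-1, and the 16 were 47.1% and 23.2% of the lower peaks. Among the 79 RPOA-2 rises, 74 were also above 0 in GRWD-1 larvae, where their median was 0.17. Among the 69 GRWD-1 losses, 66 were below 0 in RPOA-2 larvae, where their median was -0.25. Over all X peaks 58.7% had the same sign in both depletions, against 59.6% over II to V. Over all 5878 X peaks the log2 fold changes of both depletions had a Pearson correlation of 0.295 (Spearman 0.254), against 0.234 (0.255) over II to V; the points share the factors and the spread of a single fit. No X peak passed the test of the difference between both depletion effects, with edgeR or with DESeq2, against 0.0103% of all peaks (lower, edgeR), while 343 had an unadjusted edgeR p under 0.05 (5.84%, 5.8% of all peaks). Between the undepleted strains no X peak passed with either tool, against 0.00343% of all peaks (higher, edgeR), and 234 had an unadjusted p under 0.05 (3.98%, 4.06% of all peaks).

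The counts depended on single libraries. Without RPOA-2 depleted replicate 2, when the control peaks of the factors were chosen anew, 4 higher and 4 lower X peaks were left for RPOA-2 and 9 and 17 for GRWD-1; with the control peaks of all libraries they were 25, 16, 35 and 67. The other libraries that moved a count by over 1.5 times are as follows. Higher peaks upon RPOA-2 depletion numbered 24, 23 and 29 without RPOA-2 undepleted replicates 1, 3 and 4, 127 and 47 without RPOA-2 depleted replicates 1 and 3, 49 without GRWD-1 undepleted replicate 1, and 119 and 46 without GRWD-1 depleted replicates 2 and 3. Lower peaks upon RPOA-2 depletion numbered 16, 13 and 18 without RPOA-2 undepleted replicates 2, 3 and 4, and 22 without RPOA-2 depleted replicate 3. Higher peaks upon GRWD-1 depletion numbered 22 without GRWD-1 undepleted replicate 2 and 26 without GRWD-1 depleted replicate 3. Lower peaks upon GRWD-1 depletion numbered 31 and 31 without GRWD-1 undepleted replicates 1 and 2, and 36, 23 and 37 without GRWD-1 depleted replicates 1, 2 and 3. Of the 18 peaks higher and 16 lower in both depletions, 2 and 2 were left without RPOA-2 depleted replicate 2, and the lower ones numbered 7 without RPOA-2 undepleted replicate 2, 7 without RPOA-2 undepleted replicate 3 and 10 without GRWD-1 depleted replicate 2. Without RPOA-2 depleted replicate 1, 2 X peaks passed the test of the difference, and without GRWD-1 undepleted replicate 4, 1 passed that between undepleted strains. A core of calls held in all 16 fits that left out a library: 4 higher and 3 lower for RPOA-2, and 8 higher and 9 lower for GRWD-1. The peaks at unc-18 and F27D9.9 (higher) and at R02E4.3 (lower) were in this core for both depletions. Of the 42 calls at the peaks chosen by the naming rule, 13 also passed without the factors: both calls at unc-18 and R02E4.3, the RPOA-2 calls at mrp-2, C15B12.3 and the pair at C39D10.7, and the GRWD-1 calls at T23C6.4, F47G3.4, F27D9.11, C02B4.9 and C02B4.13. The other 29, at F27D9.9, M163.15, lpr-4, daf-12, lin-14 and let-7 among others, did not.

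**Figure D3:**
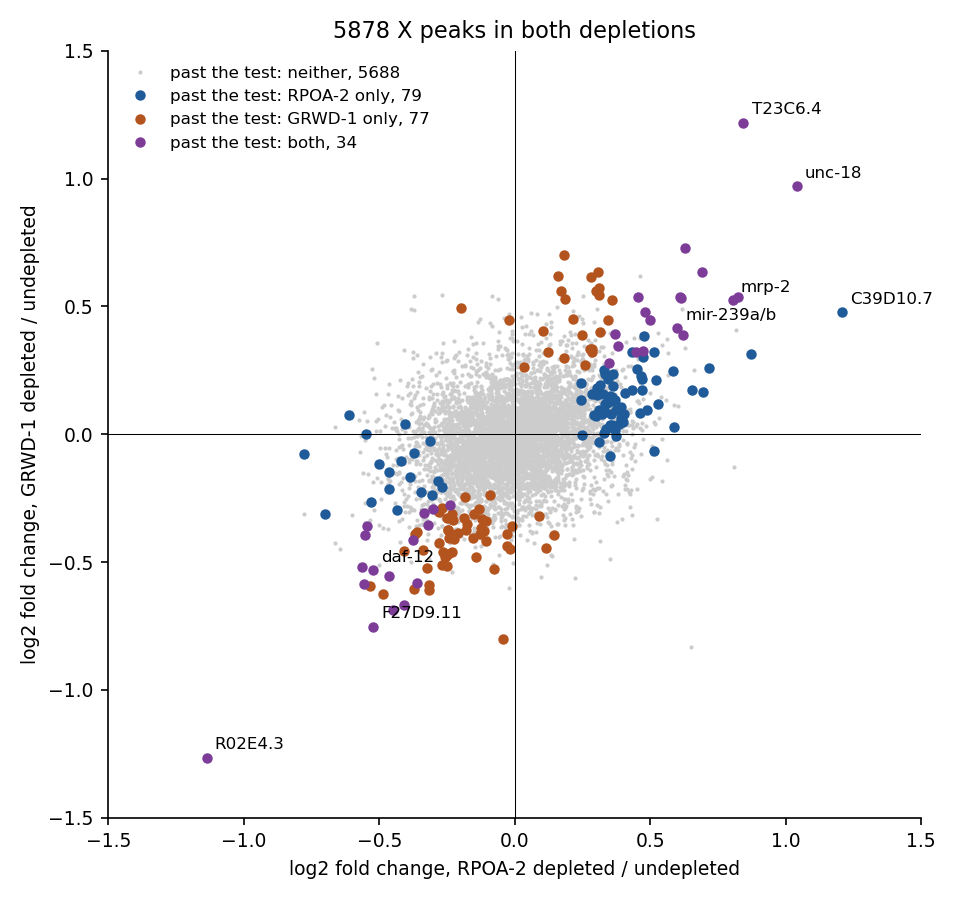
Log2 fold changes of the 5878 X peaks upon RPOA-2 depletion (x axis) and GRWD-1 depletion (y axis), coloured by which of the edgeR tests they passed. The 34 peaks called in both lie in the lower left and upper right quadrants, with R02E4.3, unc-18 and T23C6.4 farthest out.

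The clearest change on X was at unc-18 (WBGene00006757), which encodes the syntaxin-binding protein of the Sec1/Munc18 family that synaptic vesicle release needs. Its peak, X:7681898-7685826, covers the promoter and most of the gene. In undepleted RPOA-2 larvae it held 165, 185, 178 and 162 CPM, and upon RPOA-2 depletion 354, 360, 389 and 340.3 CPM. In GRWD-1 larvae the values were 176, 197.5, 173 and 177 CPM without and 334, 392.3, 343 and 360.4 CPM with depletion. The lowest depleted library lay above the highest undepleted one in both pairs. Both depleted groups also carry eft-3p::tir-1, and whether the strains differ in the number of copies of this stretch was not tested. The log2 fold change was 1.04 (SE 0.0997, edgeR adjusted p = 5.19e-21) for RPOA-2 and 0.97 (SE 0.0953, adjusted p = 3.09e-20) for GRWD-1. The neighbouring peak, X:7680389-7681820, overlaps stn-2, a syntrophin gene, a tRNA gene and the ncRNA gene F27D9.9, after which it is named. It rose from 64.7, 91.9, 79.8 and 111 CPM to 127, 137, 152 and 137 CPM upon RPOA-2 depletion (log2 fold change 0.69, adjusted p = 1.86e-09). Upon GRWD-1 depletion it rose from 82.3, 107, 94.5 and 117 to 115, 168, 172 and 180.0 CPM (0.63, adjusted p = 2.65e-09). The RPOA-2 groups were apart and the GRWD-1 groups overlapped. Of the 28 peaks within 40 kb of the unc-18 peak, itself included (a distance chosen after the values were seen), 24 passed in neither depletion, with log2 fold changes from -0.49 to 0.19 and from -0.37 to 0.17. The other peaks past the test there were a pair at F27D9.11, which fell.

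A peak upstream of mrp-2 (WBGene00003408; X:573123-573783), an ABC transporter of the multidrug resistance-associated family, held 27.4, 40.0, 46.8 and 35.0 CPM in undepleted and 51.9, 79.9, 71.0 and 65.9 CPM in depleted RPOA-2 larvae, groups that did not overlap (log2 fold change 0.80, SE 0.118, adjusted p = 2.23e-08). In GRWD-1 larvae it held 36.6, 48.5, 43.2 and 52.6 CPM without and 49.5, 79.0, 75.3 and 55.7 CPM with depletion, with the lowest depleted library below the highest undepleted one (0.52, SE 0.101, adjusted p = 0.000116). The latter call was at an adjusted p of 0.0519 without RPOA-2 depleted replicate 2. A related transporter gene, mrp-6, had a higher peak upstream as well (X:4188395-4188931; 0.61 and 0.54; named after its values were seen), with groups apart in both pairs. The peak X:14476542-14477673 near M163.15 (WBGene00045371), the single X peak over an annotated snRNA gene, held 51.8, 62.1, 76.6 and 60.9 CPM in undepleted and 78.6, 105, 125 and 89.4 CPM in depleted RPOA-2 larvae (0.63, SE 0.109, adjusted p = 6.88e-06). In GRWD-1 larvae it held 50.0, 78.6, 80.8 and 59.1 CPM and 79.1, 112.5, 144 and 125 CPM (0.73, SE 0.105, adjusted p = 1.05e-08), with a small overlap that the RPOA-2 groups did not have. Without RPOA-2 depleted replicate 2 its RPOA-2 value was 0.51 (adjusted p = 0.481). A peak of 2417 bp over the miRNA genes mir-239a and mir-239b and the snoRNA gene C34E11.20 (X:11790691-11793107, assigned to C34E11.9 and named after its values were seen) rose from between 149 and 177 CPM to between 206 and 318 CPM upon RPOA-2 depletion (0.60, adjusted p = 3.4e-08). Upon GRWD-1 depletion it rose from between 163 and 234 to between 208 and 329 CPM, with overlap (0.42, adjusted p = 0.000128).

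The other peaks with the largest rises in both were at C15B12.3 and T23C6.4. The peak over the coding exon of C15B12.3 (WBGene00015785; X:6467280-6467745) had log2 fold changes of 0.82 (SE 0.155, adjusted p = 6.34e-05) and 0.54 (SE 0.132, adjusted p = 0.00743). Neither held without RPOA-2 depleted replicate 2 (0.58 and 0.40, adjusted p = 0.428 and 0.461), and the latter also failed without GRWD-1 depleted replicate 3 (0.42, adjusted p = 0.191). The short intergenic peak nearest to T23C6.4 (WBGene00020726; X:17145349-17145524) had a low level, between 3.32 and 6.91 CPM in undepleted RPOA-2 larvae and between 4.59 and 11.5 CPM upon depletion (0.84, SE 0.248, adjusted p = 0.0432). That call at T23C6.4 was lost without any of RPOA-2 undepleted replicates 2, 3 and 4 (0.59, 0.89 and 0.82), RPOA-2 depleted replicates 2 and 4 (0.67 and 0.77), GRWD-1 undepleted replicates 1 and 3 (0.84 and 0.85) and GRWD-1 depleted replicates 3 and 4 (0.83 and 0.81). In GRWD-1 larvae the groups were apart, from 3.45 to 5.85 CPM and from 9.24 to 14.01 CPM (1.22, SE 0.231, adjusted p = 7.31e-05). Outside the naming rule, peaks at hsp-43, a small heat shock protein gene (X:6233915-6236541; 0.47 and 0.33), pkhm-2 (X:15180867-15182434; 0.62 and 0.39), F39F10.4 (0.50 and 0.45), M60.4 (0.48 and 0.48) and linc-54 (0.45 and 0.32) also rose in both.

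Among peaks lower in both, R02E4.3 (WBGene00044724) stood farthest out. Its promoter peak, X:4101958-4102559, held 34.1, 40.2, 49.7 and 50.2 CPM in undepleted and 18.7, 17.4, 23.8 and 19.5 CPM in depleted RPOA-2 larvae. In GRWD-1 larvae it held 33.8, 51.8, 41.5 and 40.3 CPM without and 17.2, 17.5, 16.85 and 19.0 CPM with depletion. The groups were apart in both pairs, and the log2 fold changes were -1.14 (SE 0.147, adjusted p = 6.97e-11) and -1.26 (SE 0.142, adjusted p = 2.92e-15). Next came an intergenic peak near F27D9.11 (X:7650968-7652061), which fell by 0.53 and 0.75 on the log2 scale, again with groups apart. Without RPOA-2 depleted replicate 2 its RPOA-2 value was -0.53 with an edgeR adjusted p of 0.11. A pair of neighbouring peaks at the ncRNA genes C02B4.9 (X:12655112-12656005) and C02B4.13 (X:12656524-12657121) fell upon both depletions. Their log2 fold changes were -0.45 and -0.41 upon RPOA-2 depletion and -0.69 and -0.67 upon GRWD-1 depletion. The RPOA-2 calls were lost without RPOA-2 undepleted replicate 3 (-0.32 and -0.39) and without RPOA-2 depleted replicate 2 (-0.35 and -0.36); that at C02B4.9 also without RPOA-2 depleted replicate 3 (-0.42), and that at C02B4.13 without RPOA-2 undepleted replicates 2 and 4 (-0.37 and -0.40). The GRWD-1 call at C02B4.9 was lost without RPOA-2 depleted replicate 2 (-0.59, edgeR adjusted p = 0.0662).

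Lipocalin genes were among these losses. lpr-4 (WBGene00012257) and lpr-3 encode secreted lipocalins, of which LPR-3 belongs to the apical matrix that lines external epithelia. The lpr-4 promoter peak (X:11064815-11065381) held 31.3, 39.1, 44.4 and 25.9 CPM in undepleted and 23.0, 21.4, 22.6 and 29.4 CPM in depleted RPOA-2 larvae, with overlap (-0.56, SE 0.135, adjusted p = 0.00615). In GRWD-1 larvae it held 35.8, 32.5, 29.3 and 37.0 CPM without and 24.6, 20.0, 21.8 and 22.3 CPM with depletion, without overlap (-0.59, SE 0.125, adjusted p = 0.000821). The RPOA-2 call was lost without RPOA-2 undepleted replicate 2 (-0.47), RPOA-2 undepleted replicate 3 (-0.45) or RPOA-2 depleted replicate 2 (-0.59). The peak over the start of lpr-3 (X:11056968-11057993, assigned to C09F12.6 and named after its values were seen) was also lower in both, by -0.38 and -0.41. An intronic peak of the tetraspanin gene tsp-14, assigned to F39C12.8 (X:4872928-4873190), had values of -0.56 and -0.52. The RPOA-2 call at F39C12.8 was lost without any of RPOA-2 undepleted replicates 1, 2 and 3 (-0.61, -0.44 and -0.60), RPOA-2 depleted replicates 2 and 4 (-0.66 and -0.53) and GRWD-1 undepleted replicates 1 and 2 (-0.57 and -0.55). The GRWD-1 call was lost without any of GRWD-1 undepleted replicates 1 and 2 (-0.51 and -0.44) and of GRWD-1 depleted replicates 1, 2 and 3 (-0.49, -0.43 and -0.57).

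**Figure D4:**
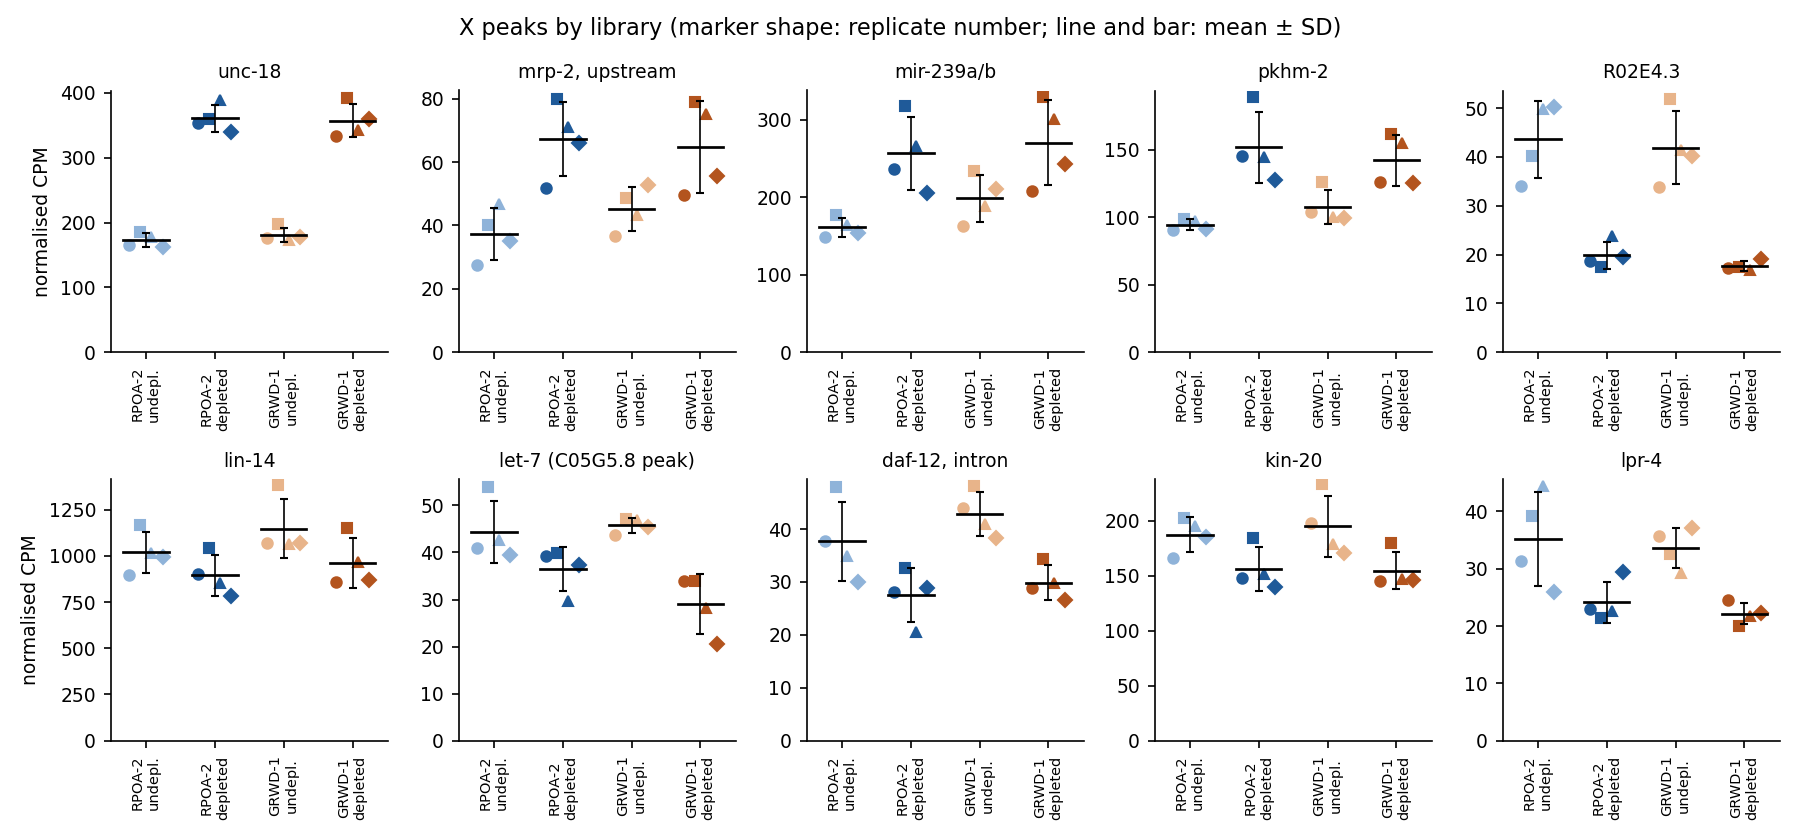
Normalised CPM of 10 X peaks in each library, with a marker shape for each replicate number and lines and bars for the mean and SD of 4 libraries; every y axis starts at 0. The depleted libraries of unc-18 lie between 333.8 and 392.3 CPM and the undepleted ones between 162.4 and 197.5 CPM, while the groups of lin-14 overlap.

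Timing genes of larval development held several of the less accessible peaks. DAF-12 is the nuclear receptor for the dafachronic acids and couples developmental timing to dauer arrest. All 9 peaks assigned to daf-12 (WBGene00000908) were below 0 upon GRWD-1 depletion and 8 upon RPOA-2 depletion, but only 2 and 1 passed the test. An intronic peak (X:10647494-10648169) held 37.8, 47.9, 34.9 and 30.1 CPM in undepleted and 28.1, 32.7, 20.5 and 28.8 CPM in depleted RPOA-2 larvae, with overlap (-0.52, SE 0.119, edgeR adjusted p = 0.0026). In GRWD-1 larvae the daf-12 peak held 43.9, 48.1, 41.0 and 38.3 CPM without and 28.8, 34.3, 29.8 and 26.6 CPM with depletion, without overlap (-0.53, SE 0.108, adjusted p = 0.000284). The former call was lost without RPOA-2 undepleted replicate 2 (-0.38, adjusted p = 0.14). A stronger daf-12 peak (X:10636858-10638377) had values of -0.11 (adjusted p = 0.602) and -0.34 (adjusted p = 0.00174). The latter call was lost without RPOA-2 undepleted replicate 4 (-0.21), RPOA-2 depleted replicate 2 (-0.40) or GRWD-1 depleted replicate 2 (-0.25).

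The longest X peak, 13128 bp, lay over lin-14, which specifies L1 fates and is the target of the miRNA lin-4. The peak (X:11471065-11484192, assigned to the ncRNA T25C12.5) held 897, 1168, 1017 and 992 CPM in undepleted and 899.5, 1042, 852 and 783 CPM in depleted RPOA-2 larvae. In GRWD-1 larvae the lin-14 peak held 1070.0, 1386, 1062 and 1072 CPM without and 861, 1150.0, 965 and 871 CPM with depletion. The groups overlapped in both pairs, with log2 fold changes of -0.24 (SE 0.0628, edgeR adjusted p = 0.0146) and -0.28 (SE 0.0628, adjusted p = 0.00266). For T25C12.5 the RPOA-2 call was lost without RPOA-2 undepleted replicate 2 (-0.18), RPOA-2 depleted replicate 2 (-0.35) or RPOA-2 depleted replicate 4 (-0.19), and the GRWD-1 call without RPOA-2 depleted replicate 2 (-0.34) or GRWD-1 depleted replicate 2 (-0.23).

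A pair of peaks overlapped let-7, the miRNA gene of the later larval stages. The peak assigned to C05G5.8 (X:14744337-14744874) held 41.0, 53.9, 42.6 and 39.6 CPM in undepleted and 39.2, 40.0, 29.7 and 37.3 CPM in depleted RPOA-2 larvae (-0.32, SE 0.112, edgeR adjusted p = 0.141). In GRWD-1 larvae C05G5.8 held 43.6, 47.1, 47.0 and 45.5 CPM without and 34.0, 33.9, 28.1 and 20.5 CPM with depletion, without overlap (-0.61, SE 0.111, adjusted p = 2.58e-05). The other let-7 peak (C05G5.7, X:14743565-14744205, named after its values were seen) passed upon RPOA-2 depletion instead (-0.43, adjusted p = 0.0448) and not upon GRWD-1 depletion (-0.30, adjusted p = 0.226). The difference between both effects was tested for each and did not pass (adjusted p = 0.854 and 0.972). Along with these, 4 neighbouring peaks over kin-20, a casein kinase 1 gene with a role in larval timing, and jud-4 (X:15271143-15284350) were lower upon GRWD-1 depletion, by -0.39 to -0.33, and 2 of them also upon RPOA-2 depletion (-0.55 and -0.32; named after their values were seen). The highest peaks of hbl-1, a hunchback-like regulator, and mir-84, of the let-7 family, passed in neither depletion (0.05 and 0.08, and -0.15 and -0.27). Over the heterochronic genes as assigned, 3 X genes held 13 peaks, of which 1 was lower upon RPOA-2 and 2 upon GRWD-1 depletion, none was higher, and the medians were -0.15 and -0.25, against medians of 0.0035 and 0.0058 over all peaks, of which 0.487% and 0.814% were lower. The called members were all peaks of daf-12.

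Among small RNA genes, those of tRNAs are the most numerous on X. Of 177 X peaks that overlap a tRNA gene, 3 were higher and 3 lower upon RPOA-2 depletion, and 2 were higher and 6 lower upon GRWD-1 depletion, with medians of -0.04 and -0.05. Over all peaks 1.19% were higher and 0.487% lower upon RPOA-2 depletion and 0.57% and 0.814% upon GRWD-1 depletion, and of the 191 tRNA peaks of II to V, 0 and 3, and 3 and 4, were called. The tRNA gene WBGene00022964 (X:8969300-8969997) was lower in both (-0.47 and -0.55; named after its values were seen), and WBGene00014555 (X:15796531-15797035) was higher upon GRWD-1 depletion (0.64, SE 0.128, edgeR adjusted p = 0.000265; RPOA-2 0.31, adjusted p = 0.289). WBGene00010430 (X:12938084-12938283) was lower upon GRWD-1 depletion (-0.63, edgeR adjusted p = 0.0328), a call lost without any of RPOA-2 undepleted replicate 3 (-0.60), RPOA-2 depleted replicate 2 (-0.56), GRWD-1 undepleted replicates 1, 3 and 4 (-0.58, -0.55 and -0.62) and the 4 GRWD-1 depleted replicates (-0.71 to -0.57). Of 23 peaks over miRNA genes, 2 were higher and 1 lower upon RPOA-2 depletion and 1 was higher and 2 lower upon GRWD-1 depletion. Besides mir-239a/b and let-7 these were mir-8196a (0.51 upon RPOA-2 depletion, edgeR adjusted p = 0.00347) and the cluster with mir-54 to mir-56 (X:13142879-13146424; -0.24 upon GRWD-1 depletion, adjusted p = 0.0378), both named after their values were seen. On II to V, of 54 miRNA peaks 3 were higher and 4 lower upon RPOA-2 depletion, and 2 and 5 upon GRWD-1 depletion. Of 13 peaks over snoRNA genes, 2 were higher upon each depletion and none was lower. Of the 141 snoRNA peaks of II to V, 6 were higher and 1 lower upon RPOA-2 depletion, and 2 and 2 upon GRWD-1 depletion.

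Further peaks passed upon RPOA-2 depletion alone. The largest rise was at an intergenic pair near C39D10.7. The C39D10.7 peak X:7916104-7916493 held 6.76, 13.6, 8.51 and 16.7 CPM in undepleted and 22.6, 25.5, 32.6 and 23.5 CPM in depleted RPOA-2 larvae, without overlap (log2 fold change 1.21, SE 0.176, edgeR adjusted p = 1.7e-08). In GRWD-1 larvae it held 9.39, 16.4, 15.1 and 16.6 CPM without and 14.6, 21.4, 23.0 and 21.2 CPM with depletion (0.48, adjusted p = 0.0514). Its neighbour (X:7915643-7916001) had values of 0.87 and 0.32, and its RPOA-2 call was lost without RPOA-2 depleted replicate 2 (0.86, adjusted p = 0.104). The peak at ZK402.5 (0.72) was higher. Those assigned to sup-10 (in an intron of nhr-1, -0.78), to dhs-28, a peroxisomal dehydrogenase gene (in a coding exon of gei-15, -0.70), and to B0403.5 (-0.61) were lower. All 4 calls were lost without RPOA-2 depleted replicate 2 (0.73, -0.52, -0.53 and -0.54). The call at ZK402.5 was also lost without RPOA-2 undepleted replicates 1, 3 or 4, RPOA-2 depleted replicates 3 or 4, or GRWD-1 depleted replicate 3 (0.57 to 0.78), and that at sup-10 without RPOA-2 undepleted replicates 2, 3 or 4 (-0.73 to -0.68). Those at dhs-28 and B0403.5 were lost without RPOA-2 undepleted replicates 1, 3 or 4, RPOA-2 depleted replicate 3, GRWD-1 undepleted replicates 1 or 2 or GRWD-1 depleted replicate 3 (-0.70 to -0.53 and -0.63 to -0.42), and that at dhs-28 also without GRWD-1 undepleted replicate 3 (-0.69).

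Upon GRWD-1 depletion alone, an intergenic peak upstream of F47G3.4 (X:2380820-2381243) rose by 0.70 on the log2 scale (edgeR adjusted p = 1.96e-05), against 0.18 upon RPOA-2 depletion. An intergenic peak nearest to the pseudogene WBGene00021483, which it does not overlap, was higher (0.62). The peak assigned to M03B6.3, in an intron of hlb-1, was lower (-0.80). The call at WBGene00021483 was lost without RPOA-2 undepleted replicate 4, RPOA-2 depleted replicate 2, GRWD-1 undepleted replicates 1, 3 or 4 or any GRWD-1 depleted replicate (0.54 to 0.66), and that at M03B6.3 without RPOA-2 depleted replicate 2, GRWD-1 undepleted replicates 1 or 2 or GRWD-1 depleted replicates 1 or 3 (-0.77 to -0.63). Since no X peak passed the test of the difference between depletions, none of these peaks was shown to respond to a single depletion.

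The lin-14 peak described above was among the 3 X peaks with the highest levels. Of the other two, the peak at mdl-1, a Mad-like transcription factor gene, assigned to R03E9.9 (X:6735347-6746007), had values of 0.11 and -0.04. The peak assigned to C30E1.9 (X:16928027-16931995), which overlaps a tRNA gene, was higher upon RPOA-2 depletion (0.35, edgeR adjusted p = 0.00185) and had 0.15 (adjusted p = 0.422) upon GRWD-1 depletion. The former call was lost without RPOA-2 undepleted replicate 1 (0.22), RPOA-2 undepleted replicate 4 (0.33) or RPOA-2 depleted replicate 2 (0.37).

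None of the X genes that set or carry out dosage compensation had a called peak. The 6 genes held 22 peaks, with medians of 0.0003 and -0.10. Over all peaks 1.19% were higher and 0.487% lower upon RPOA-2 depletion, and 0.57% and 0.814% upon GRWD-1 depletion. At these shares 22 peaks are too few for the absence of calls to set these genes apart from others. The highest peaks, with the RPOA-2 value first and the GRWD-1 value second, had log2 fold changes of 0.05 and -0.06 at sex-1, a nuclear receptor gene, 0.03 and -0.20 at fox-1, an RNA-binding protein gene, and -0.01 and -0.06 at ceh-39, a ONECUT homeobox gene. At xol-1 they were 0.10 and -0.09. The values were 0.27 (edgeR adjusted p = 0.0882) and 0.01 at sdc-1, and 0.18 (adjusted p = 0.328) and -0.0023 at sdc-2. For sdc-1 the RPOA-2 value passed without RPOA-2 depleted replicate 1 (0.36, adjusted p = 0.0101) and without GRWD-1 depleted replicate 2 (0.30, adjusted p = 0.0311).

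The X genes of the cell type lists were called nowhere but at unc-18. Peaks assigned to 17 genes of the neuron list numbered 28, with 1 higher upon each depletion and medians of -0.02 and 0.03. The lists of muscle (13 peaks, medians -0.12 and -0.02), gut (11 peaks, -0.06 and 0.05) and epidermis and cuticle (22 peaks, -0.0016 and -0.05) held no called peak. Nor did the germline list, which on X was him-4 and mes-1 alone (12 peaks, 0.05 and 0.15). Over all peaks 1.19% were higher and 0.487% lower upon RPOA-2 depletion, and 0.57% and 0.814% upon GRWD-1 depletion. Lists of 11 to 28 peaks are too short to show fewer calls than these shares. The highest peaks of elt-2, an intestinal GATA factor gene, nhr-25, lin-15B, unc-3, myo-2 and vit-2 passed in neither comparison.

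The called peaks differed from the other X peaks in length and place. Called peaks were 782 bp and 750 bp long in the median (higher and lower, RPOA-2) and 651 bp and 683 bp (GRWD-1), against 381 bp over all X peaks. The percent of X peaks called in either depletion was 0.388% for peaks of up to 0.25 kb, 1.95% up to 0.5 kb, 5.63% up to 1 kb, 8.87% up to 2 kb and 16.7% above; on II to V these values were 0.369%, 1.63%, 4.64%, 6.28% and 8.97%. Longer peaks hold more reads and are measured more precisely, and the part of this in the calls was not tested. Of the higher peaks 59.5% (RPOA-2) and 61.9% (GRWD-1) lay between genes, and of the lower ones 23.5% and 37.7%, against 32.4% of all X peaks. Of 1210 X peaks that overlap no gene, 30 were higher and 2 lower upon RPOA-2 depletion, and 13 and 9 upon GRWD-1 depletion, where 1.19%, 0.487%, 0.57% and 0.814% of all peaks were called. Of 3114 such peaks of II to V, 69 were higher and 8 lower upon RPOA-2 depletion, and 22 and 28 upon GRWD-1 depletion. Called peaks of the same direction lay within 10 kb of each other for 4 of 79 and 10 of 34 (RPOA-2) and for 8 of 42 and 24 of 69 (GRWD-1). Some of these were peaks assigned to the same gene, as at kin-20, dhs-28 and C39D10.7. No such count was made for other peaks, so these numbers do not show that called peaks cluster.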

How the data were processed

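ATAC-seq libraries of 16 samples were processed by the authors with SRAtac: reads were trimmed with fastp, aligned with bowtie 2 to WBcel235, freed of mitochondrial and poorly mapped reads, and peaks called with MACS2 in each library were merged with HOMER. The deposited values are raw read counts per merged peak (featureCounts 2.0.1, duplicates ignored). Peak length and read depth (2337415 to 13010378 counts per library) therefore set the precision.

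Counts of all 29131 peaks were fitted with edgeR 4.0.16 (R 4.3.3; TMM, quasi-likelihood test) with 4 genotypes and 2 factors of unwanted variation, computed from 13897 control peaks with a DESeq2 1.42.0 adjusted p of at least 0.75 in a genotype-only RPOA-2 comparison. The low-count filter removed 0 peaks. Benjamini-Hochberg adjustment ran over all peaks, with a threshold of 0.05. SEs were computed back from the p-values. A peak was assigned to the gene whose 5′ end is nearest its midpoint. On simulated data of the RPOA-2 comparison, 62 of 100 peaks changed 1.5-fold and 96 of 100 changed 2-fold were recovered, with 6 unchanged peaks called. The simulated counts were drawn from the fitted model itself, with its factors and spread, and do not test whether that model holds. X shares were compared with exact permutation tests.

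The members, lists and tests were chosen with earlier results of these data known. Named peaks are up to 6 in each direction called in both depletions, the 3 largest changes in each direction called in 1 depletion, peaks past the test of a difference, the 3 highest peaks, the highest peak of 16 listed genes, and called peaks of listed genes. The alternatives were other factors, control peaks, scalings, filters, thresholds, window sizes, DESeq2, a replicate block and leaving out each library; with the control peaks kept, the last was added after seeing the data. Sequence motifs were not analysed here.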

Additional observations from a re-analysis of the deposited data

Results flagged for a closer look

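In 8 of 176 groups of 4 libraries examined, 1 library lay far from the other 3; chance gives about 1 in 20. The lowest X share in GRWD-1 depleted larvae was 24.23%, with the others between 25.08% and 25.25%. In GRWD-1 undepleted larvae replicate 2 was high at unc-18 (197.5 CPM, others 172.8 to 177) and at R03E9.9 over mdl-1 (1646 CPM, others 1233 to 1291). The same replicate was high at T25C12.5 over lin-14 (1386 CPM, others 1062 to 1072). At myo-2 it was replicate 1 of this group that was high (74.86 CPM, others 67.89 to 68.82). In GRWD-1 depleted larvae 1 library held 66.07 CPM at fox-1, with the others between 50.05 and 50.41. In RPOA-2 depleted larvae 1 library held 4.594 CPM at elt-2, with the others between 6.008 and 6.244. In RPOA-2 undepleted larvae 1 library held 35.8 CPM at vit-2, with the others between 30.81 and 31.39.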

How the results depend on the processing

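Counts of X peaks are given in the order RPOA-2 higher, RPOA-2 lower, GRWD-1 higher, GRWD-1 lower, both higher, both lower. They were 7, 2, 3, 5, 1 and 1 without the factors, 25, 8, 23, 23, 12 and 3 with 1 factor, and 91, 38, 12, 12, 8 and 7 with 3. With control peaks from the GRWD-1 comparison they were 15, 16, 34, 51, 10 and 14, with 8 libraries a fit 87, 31, 1, 1, 1 and 1, and with DESeq2 91, 32, 43, 70, 22 and 15. The first 4 were 43, 16, 26 and 28 at an adjusted p of 0.01, where 9 were lower in both. Leaving out 1 library gave 4 to 127, 4 to 40, 9 to 48, 17 to 68, 2 to 23 and 2 to 16, and with the control peaks kept the first 4 were 25 to 106, 11 to 38, 21 to 51 and 22 to 78 (an alternative chosen after seeing the data; RPOA-2 higher 41 and 52 without RPOA-2 undepleted replicates 2 and 3, GRWD-1 lower 39, 38 and 45 without GRWD-1 undepleted replicates 1, 2 and 3 and 35, 22 and 34 without GRWD-1 depleted replicates 1, 2 and 3). The difference between depletions had 0 to 2 X peaks and that between undepleted strains 0 to 1, the latter 1 at an adjusted p of 0.1 and 1 with 3 factors.

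The replicate numbers were not shown to pair the libraries: the labels tie no number to a batch, and of 24 same-numbered pairs 13 had r over 0.1 (-0.0186 to 0.457). The pairs over 0.1 included all 6 numbered 1 (0.132 to 0.457) and all 6 numbered 2 (0.193 to 0.436), while those numbered 3 and 4 were between -0.0186 and 0.108; other pairs had a median of -0.0453, and 12 of 16 libraries correlated best with their own number. With the replicate block in place of the factors the 6 counts were 96, 22, 28, 25, 15 and 8, 3 peaks differed between undepleted strains, 0 windows passed, and the exact permutation p of the X share was 0.625 and 0.375. The block kept 34 of 42 calls of named peaks; those lost were T25C12.5 and F39C12.8 in both depletions, T23C6.4 (RPOA-2), and the stronger daf-12 peak, WBGene00010430 and WBGene00021483 (GRWD-1). It turned sdc-2 (GRWD-1) to 0.018 and the stronger daf-12 peak (RPOA-2) to 0.0013.

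Windows called on X numbered 1 and 5 (RPOA-2, GRWD-1) at 0.5 Mb, 0 and 1 at 2 Mb, 0 and 0 without factors, and 0 to 5 and 0 to 5 with a library left out. The share difference ranged from -0.0415 to 0.349 points (RPOA-2) and from -0.344 to -0.00285 (GRWD-1) with a library left out. As a mean or median over peaks of log2 CPM, X minus II to V, the RPOA-2 difference was -0.0088 or -0.0041 and the GRWD-1 difference -0.02845 or -0.03265. DESeq2 and 0 factors gave 0.0017 and 0.022 at sdc-2 (GRWD-1), and 0 factors 0.033 at daf-12 (RPOA-2).

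Of 42 called values of named peaks, 13 were kept without factors, 28 of 30 with DESeq2 (12 had no adjusted p), 19 without RPOA-2 depleted replicate 2 and 32 to 42 without another library; none turned its sign. Of values that were not called, leaving out a library turned the sign for RPOA-2 at sex-1 (-0.0496 to 0.0971), elt-2 (-0.17 to 0.10), nhr-25 (-0.0742 to 0.0850), M03B6.3 (-0.19 to 0.25), lin-15B (-0.11 to 0.11), ceh-39 (-0.0432 to 0.0420), F47G3.4 (-0.0232 to 0.27), fox-1 (-0.0273 to 0.0832), hbl-1 (-0.0351 to 0.14) and R03E9.9 (-0.0357 to 0.18), and for GRWD-1 at sex-1 (-0.14 to 0.0053), sdc-2 (-0.0565 to 0.0533), lin-15B (-0.0556 to 0.12), sdc-1 (-0.10 to 0.0869), sup-10 (-0.26 to 0.10), R03E9.9 (-0.0898 to 0.0145) and B0403.5 (-0.0117 to 0.31). The cause of these changes was not tested.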
